A study of Mus musculus with 4 samples.

Results

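The genes described here are 37 genes of DNA repair and of the DNA damage checkpoint, chosen by name: 13 of homologous recombination, 8 of the Fanconi anaemia pathway, 3 of mismatch repair, 8 of checkpoint signalling and fork protection, and 5 of base and strand-break repair. Of these, 33 could be measured, out of 18782 genes tested on the arrays, each on the probe set that carried its symbol alone and had the highest mean. Rad54b, Fanci and Msh6 lay only on probe sets that name several genes, and Xrcc2 was not listed, so these 4 genes were not analysed here. The samples were alveolar macrophages, the resident phagocytes of the lung airspaces, sorted from adult mice on a C57BL/6 background. WT mice were PPARg fl/fl, with floxed alleles of Pparg, the gene of the lipid-sensing nuclear receptor PPARγ, and no Cre. KO mice were CD11cCre/PPARg fl/fl, so that a Cre driven by the CD11c promoter deletes Pparg in CD11c-expressing cells, and the floxed alleles are common to both groups. Each group had 2 arrays, and each array held RNA of cells pooled from 2 mice. The sort took CD11b-low cells in WT, described by the submitters as mature, and CD11b-high cells in KO, described as arrested precursors, so that genotype, gate and maturity cannot be told apart.

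Cells use these genes to mend DNA broken or altered by replication, oxidation or crosslinks. Homologous recombination copies an intact sister chromatid into a double-strand break, and the Fanconi proteins open crosslinks so that recombination can follow. Mismatch repair removes replication errors, and glycosylases start base excision repair by cutting out altered bases. The checkpoint kinases ATM and ATR sense damage and, through CHK2 and CHK1, halt the cell cycle. Many of these genes are transcribed mainly from late G1 through S phase under E2F factors, and alveolar macrophages are known to maintain themselves in the lung by local proliferation.

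The promoters of these genes were searched for the E2F-type letters TTTCCCGC, TTTGGCGC, TTTGCCGC and TTTCGCGC on both strands. The window ran from 250 bases before to 50 bases after the start site given by RefSeq (build GRCm38.p6). Of the 37 genes, 32 had a promoter in that table, and 9 of the 32 (28.1%) held a match, against 3.56% of the tested genes in the table and 2.6% of all its genes. The 5 printed here have the smallest p-values among those with a match before the start site. That choice favours genes that pass the test below, as 4 of them did. Only the fixed letters above were searched, so the matches are alike by construction. The sequences cover the 250 bases before the start site, 5′ to 3′ on the gene's strand, with the match in capitals. They are Brca2 (chr5:150522371-150522620, plus strand), Uhrf1 (chr17:56304063-56304312, plus strand, the downstream of its start sites), Bard1 (chr1:71102973-71103222, minus strand), Chek2 (chr5:110839733-110839982, plus strand) and Fancg (chr4:43010302-43010551, minus strand). In Brca2 and Chek2 the match reads on the opposite strand.

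Brca2: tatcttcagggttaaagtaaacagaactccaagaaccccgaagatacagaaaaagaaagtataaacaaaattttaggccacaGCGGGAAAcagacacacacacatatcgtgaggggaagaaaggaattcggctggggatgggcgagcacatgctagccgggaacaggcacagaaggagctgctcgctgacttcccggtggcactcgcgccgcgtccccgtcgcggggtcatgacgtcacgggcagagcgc
Uhrf1: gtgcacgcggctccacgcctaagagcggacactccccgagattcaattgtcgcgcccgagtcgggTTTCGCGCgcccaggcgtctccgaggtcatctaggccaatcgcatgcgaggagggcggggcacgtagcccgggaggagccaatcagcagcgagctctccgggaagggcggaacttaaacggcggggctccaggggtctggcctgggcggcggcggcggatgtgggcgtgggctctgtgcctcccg
Bard1: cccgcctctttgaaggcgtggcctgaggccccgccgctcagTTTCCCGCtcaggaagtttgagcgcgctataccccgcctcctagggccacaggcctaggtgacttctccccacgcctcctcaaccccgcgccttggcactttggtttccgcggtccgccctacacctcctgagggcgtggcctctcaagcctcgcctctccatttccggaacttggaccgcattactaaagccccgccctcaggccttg
Chek2: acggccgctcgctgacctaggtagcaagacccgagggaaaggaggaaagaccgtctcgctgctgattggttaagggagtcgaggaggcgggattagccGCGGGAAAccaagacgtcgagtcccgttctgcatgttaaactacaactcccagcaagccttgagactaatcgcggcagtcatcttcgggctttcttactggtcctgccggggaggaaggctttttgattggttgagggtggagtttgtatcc
Fancg: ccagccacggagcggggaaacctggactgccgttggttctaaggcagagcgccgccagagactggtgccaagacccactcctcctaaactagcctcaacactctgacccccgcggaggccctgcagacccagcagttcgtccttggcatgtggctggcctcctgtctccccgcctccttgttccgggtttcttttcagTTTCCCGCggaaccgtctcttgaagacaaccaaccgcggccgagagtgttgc

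The first base of the match lay 168 bases before the start in Brca2, 185 in Uhrf1, 209 in Bard1, 152 in Chek2 and 52 in Fancg. Of these genes, Fancg did not pass that test, and the other 4 were lower in KO. Both KO arrays of Fancg lay below both WT arrays, as in 30.0% of all genes. Among measured genes with a promoter in the table, a match was held by 5 of the 14 that were lower and by 3 of the 16 that did not pass the test, the latter being Fancg, Msh3 and Rad51c. In Clspn, the fifth lower gene, the match began after the start site and is not shown. In Msh3 a pair of matches on opposite strands overlapped. The letters TTTGAA, the core of the CHR element of late cell cycle promoters, were held by 2 of the 32 genes (6.25%), Bard1 and Tdp1. They were held by 17.3% of the tested genes in the table and 20.2% of all its genes. A match is a description of the sequence, and binding was not measured here.

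On the arrays, expression is given as the log2 value of each probe set, so a difference of 1 is a doubling, and the median of every array was 3.14. KO and WT were compared with limma, and a gene was called when its p-value, adjusted over all 18782 genes, was under 0.05. Of the 33 measured genes, 16 were lower in KO, 0 were higher at an adjusted p under 0.05 (2 at an unadjusted p under 0.05; 0 with the ordinary test) and 17 did not pass the test. Over all genes tested, 6.86% were lower and 7.41% higher. The set was chosen with earlier results of these data known, so these shares stand beside its counts only as a description. The median difference of the 33 genes was -0.43, beside -0.015 over all genes. Both KO arrays lay below both WT arrays in 27 of the 33 genes and above them in 3, while 30.0% and 25.3% of all genes did so. Every one of the 16 lower genes had WT means above the array median, and 7 of them had KO means below it. At low values RMA tends to compress differences, so a fold change may be understated there, which was not measured here. With 2 arrays a group the count rested on each array: leaving out WT replicate 1 left 10 lower genes, leaving out WT replicate 2 left 12, leaving out KO replicate 1 left 11 and leaving out KO replicate 2 left 9. Of the 16, 8 passed whichever array was left out (Brca2, Neil3, Fancd2, Uhrf1, Bard1, Clspn, Rad51ap1 and Brip1).

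**Figure D1:**
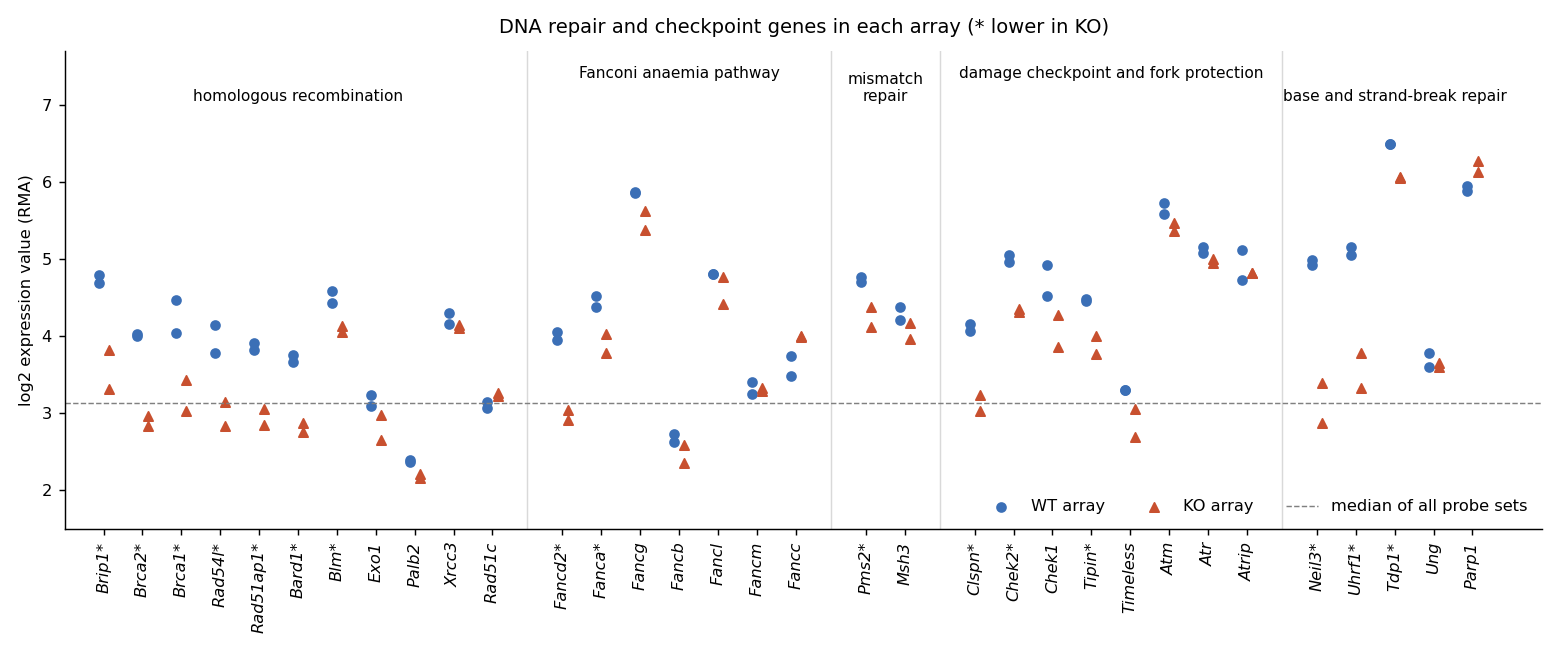
Log2 expression value (vertical axis) of each measured repair and checkpoint gene (horizontal axis, by pathway) in the 2 WT arrays (circles) and 2 KO arrays (triangles); an asterisk marks genes lower in KO. The triangles lie wholly below the circles in 27 of 33 genes, and the dashed line is the array median of 3.14.

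Homologous recombination held the most lower genes, 7 of 11 measured, with a median of -0.90. Brca1 and Bard1 encode the partners of the ubiquitin ligase that starts repair at the break. Brca1 read 4.48 and 4.04 in WT and 3.44 and 3.04 in KO, a fall of 1.02 ± 0.19 (SE; adjusted p = 0.0184), or 2.03-fold. Its arrays did not overlap between groups but spread within each, and it did not pass without WT replicate 1 (adjusted p = 0.0571) or KO replicate 2 (adjusted p = 0.102). Bard1 read 3.75 and 3.67 in WT and 2.75 and 2.87 in KO, a fall of 0.90 ± 0.10 (adjusted p = 0.00264). The other probe sets of Bard1 were dimmer and differed by -0.36 and -0.33, and the mean of all its probe sets differed by -0.53 (adjusted p = 0.0146).

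Brca2 encodes a central mediator of homologous recombination. It read 4.03 and 4.01 in WT and 2.97 and 2.83 in KO, a fall of 1.12 ± 0.10 (adjusted p = 0.00115), the smallest p of the 33 genes. Palb2, whose product joins BRCA1 to BRCA2, read 2.36 and 2.40 in WT and 2.16 and 2.21 in KO, below the array median throughout. Its difference of -0.19 did not pass the test (95% interval -0.43 to 0.04). Brip1, a helicase that binds BRCA1, had the largest fall of the pathway. It read 4.80 and 4.70 in WT and 3.82 and 3.32 in KO, which differ by -1.18 ± 0.17 (adjusted p = 0.00711). The KO arrays lay far apart, yet both were well below WT.

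Rad51ap1 and Rad54l, which help the broken end invade the intact duplex, were also lower. Rad51ap1 read 3.92 and 3.82 in WT and 3.06 and 2.85 in KO, a fall of 0.92 ± 0.11 (adjusted p = 0.0040). Rad54l read 4.14 and 3.79 in WT and 3.15 and 2.84 in KO, a fall of 0.97 ± 0.16 (adjusted p = 0.012), and its adjusted p was 0.0763 without KO replicate 2. The helicase gene Blm, which acts late to dissolve joined molecules, fell by 0.41 ± 0.10 (adjusted p = 0.0497), at the edge of the threshold, and did not pass when any 1 array was left out (adjusted p from 0.0667 to 0.205). The resection nuclease gene Exo1 read 3.10 and 3.24 in WT and 2.97 and 2.66 in KO and did not pass (-0.35; adjusted p = 0.158). Of the genes Rad51c and Xrcc3, whose products form a complex in recombination, Rad51c differed by 0.13 (95% interval -0.11 to 0.36) and Xrcc3 by -0.10 (95% interval -0.35 to 0.14). Rad51c was the single gene of the pathway with both KO arrays above both WT arrays, as in 25.3% of all genes.

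In the Fanconi anaemia pathway 2 of 7 measured genes were lower, with a median of -0.22. Fancd2, the protein that is ubiquitinated to mark a crosslink, was the clear case. It read 4.06 and 3.95 in WT and 3.05 and 2.91 in KO, a fall of 1.03 ± 0.11 (adjusted p = 0.00178), and it passed with any array left out. Fanca, of the core complex that does the marking, read 4.52 and 4.38 in WT and 4.02 and 3.78 in KO, a fall of 0.55 ± 0.12 (adjusted p = 0.0319). Fanca did not pass when any 1 array was left out, with adjusted p from 0.0551 to 0.151.

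The remaining core complex genes did not move as one. Fancg differed by -0.35 (adjusted p = 0.108), Fancb by -0.22 and the ubiquitin ligase gene Fancl by -0.21, all 3 not past the test. Fancl split by array, reading 4.80 and 4.81 in WT and 4.42 and 4.78 in KO. The translocase gene Fancm, which recruits the core complex to DNA, differed by -0.02 (95% interval -0.27 to 0.23). Fancc went the other way, with 3.48 and 3.75 in WT and 3.99 and 4.0 in KO. Its difference of 0.38 did not pass over all genes (adjusted p = 0.0956). Both its KO arrays lay above both WT arrays, as in 25.3% of all genes.

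Mismatch repair was measured by 2 genes. Pms2, a mismatch repair endonuclease, read 4.77 and 4.71 in WT and 4.38 and 4.13 in KO, a fall of 0.49 ± 0.12 (adjusted p = 0.0442). It did not pass with any 1 array left out (adjusted p from 0.0591 to 0.186) or with an intensity trend in the variance (0.0616). Msh3, which recognises insertion loops, differed by -0.23 (adjusted p = 0.308). With so few genes, the data say little about this pathway as a whole.

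Among checkpoint genes 3 of 8 were lower, with a median of -0.51. The kinases at the top of the pathway did not pass the test. Atm, the kinase activated by double-strand breaks, read 5.73 and 5.59 in WT and 5.37 and 5.47 in KO, a difference of -0.24 (95% interval -0.50 to 0.01). Atr, which responds to stalled forks, differed by -0.14 (95% interval -0.38 to 0.09) and its partner gene Atrip by -0.10 (95% interval -0.46 to 0.25). In all 3 the interval reached 0, and a fall as large as that of Brca2 lay outside it.

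The genes that act below these kinases were lower or had lower values. Chek2 encodes the kinase CHK2, the main target of ATM. It read 5.05 and 4.97 in WT and 4.31 and 4.36 in KO, a fall of 0.68 ± 0.10 (adjusted p = 0.0065). Its arrays agreed closely within each group, and its adjusted p was 0.0516 without KO replicate 1. Chek1 encodes CHK1, the target of ATR, and differed by nearly as much, -0.66 ± 0.19. It read 4.93 and 4.52 in WT and 4.27 and 3.86 in KO, so that WT replicate 2 lay closer to KO replicate 1 than to WT replicate 1, and it did not pass (adjusted p = 0.0745). Without WT replicate 2 it did (adjusted p = 0.0393).

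Clspn encodes claspin, the adaptor through which ATR reaches CHK1. It read 4.16 and 4.08 in WT and 3.24 and 3.03 in KO, a fall of 0.98 ± 0.11 (adjusted p = 0.00285). Timeless and Tipin encode the partners of a complex that travels with the replication fork and protects it. Tipin fell by 0.58 ± 0.12 (adjusted p = 0.0218), from 4.48 and 4.46 to 4.01 and 3.77, and of the fits that left out 1 array it passed only the one without KO replicate 1 (adjusted p = 0.0406; up to 0.107 in the others). Timeless read 3.31 and 3.30 in WT and 3.05 and 2.69 in KO, a difference of -0.43 that did not pass (adjusted p = 0.0997). Both KO arrays of Timeless lay below both WT arrays, as in 30.0% of all genes, and below the array median.

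Base and strand-break repair held the largest fall of all 33 genes. Neil3, a glycosylase that removes oxidised bases and acts at replication forks, read 4.92 and 5.00 in WT and 3.39 and 2.87 in KO. The fall of 1.83 ± 0.18 (adjusted p = 0.00145) is 3.55-fold. Uhrf1 was counted in this group, although its product reads hemimethylated DNA behind the fork and keeps its methylation. It followed with 5.06 and 5.16 in WT and 3.78 and 3.33 in KO, a fall of 1.55 ± 0.16 (adjusted p = 0.00186), or 2.93-fold. Both genes passed with any array left out, and in both KO replicate 2 was the lower.

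Tdp1, which frees topoisomerase trapped on DNA, read 6.49 in each WT array and 6.06 and 6.07 in KO, a fall of 0.43 ± 0.09 (adjusted p = 0.0296). It was among the most even genes of the set, yet did not pass with any 1 array left out (adjusted p from 0.0949 to 0.129). Parp1, the poly(ADP-ribose) polymerase that senses strand breaks, was higher in value, with 5.95 and 5.88 in WT and 6.27 and 6.13 in KO. The difference of 0.28 did not pass (adjusted p = 0.141). Ung, the glycosylase that removes uracil, read 3.79 and 3.60 in WT and 3.65 and 3.60 in KO, a difference of -0.07 (95% interval -0.33 to 0.20).

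**Figure D2:**
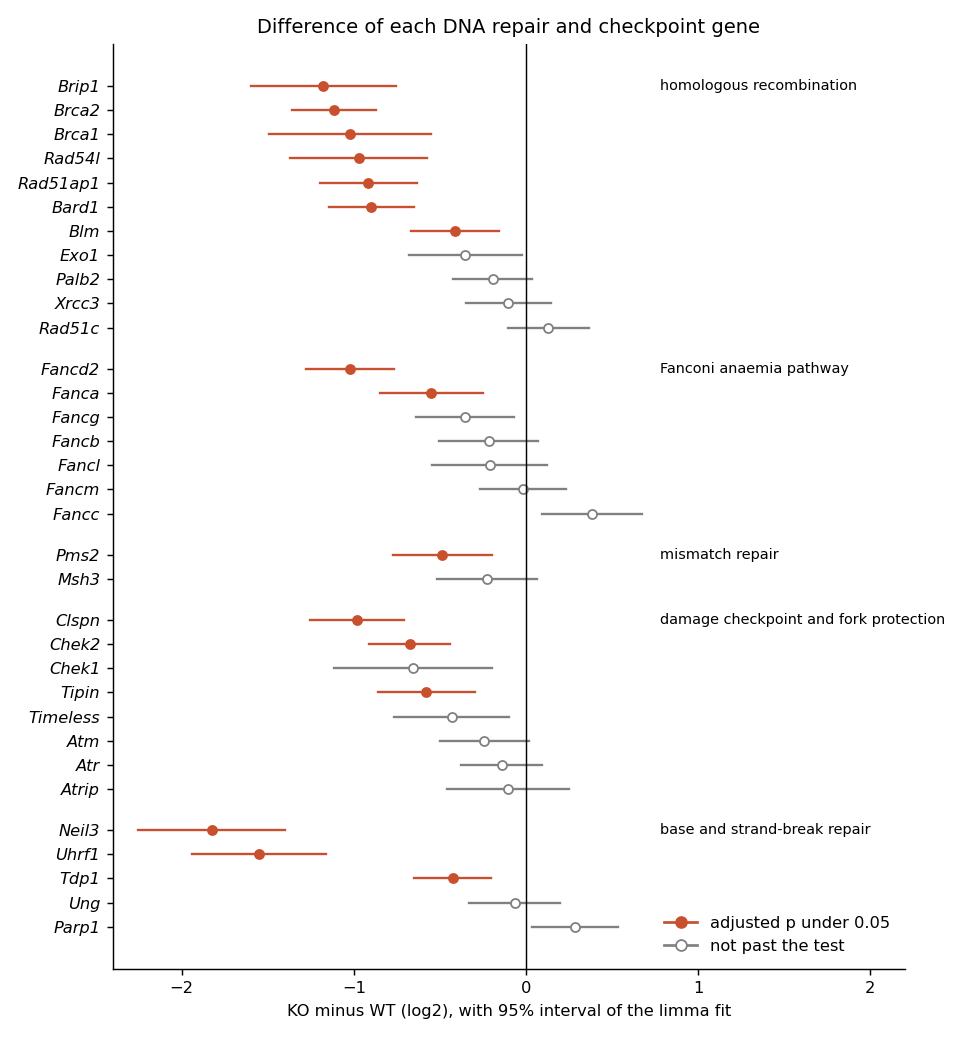
KO minus WT difference (log2, horizontal axis) of each measured repair and checkpoint gene, with the 95% interval of the limma fit from 2 arrays a group; filled points passed an adjusted p of 0.05. The 16 filled points run from -1.83 (Neil3) to -0.41 (Blm), and no gene passed on the right of 0.

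Genes known as markers of the G1/S transition made up part of the set. In a published list of G1/S markers, 8 of the 37 genes appear, and 6 of the 8 were lower (Brip1, Rad51ap1, Blm, Clspn, Tipin and Uhrf1), with a median of -0.75. Of the 25 measured genes outside that list, 10 were lower, with a median of -0.35. The rest of the G1/S list, which holds none of the 37 genes, had 22 of 29 measured genes lower, with a median of -0.53. Over the whole G1/S list 28 of 37 measured genes were lower, and 16 to 18 when any 1 array was left out. Proliferation markers were lower in 18 of 20 measured genes. The mean level of the proliferation list was 6.54 and 6.48 in the WT arrays and 5.33 and 4.97 in the KO arrays. In KO replicate 2, 19 of its 20 genes lay below KO replicate 1, as did 13 of the 16 lower repair genes. Over all genes tested, 9281 of 18782 did so. In WT replicate 2, 13 of the 20 and again 13 of the 16 lay below WT replicate 1, beside 9432 of 18782. Among all 33 measured repair genes, 24 were lower in KO replicate 2 than in KO replicate 1, and 23 in WT replicate 2 than in WT replicate 1. The part of cell cycling in the repair genes was not tested, and in bulk RNA fewer cycling cells and less RNA per cell cannot be told apart.

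Of 79 measured repair genes outside the set, in 8 further lists, 15 were lower (19%) and 2 higher (2.53%), with a median of -0.27. Over all genes tested, 6.86% were lower and 7.41% higher. The count of lower genes fell to between 3 and 6 when 1 array was left out. In homologous recombination 7 of 17 were lower, led by the flap nuclease gene Dna2 (-1.55), the single-strand binding protein gene Rpa1 (-0.86), Mre11a (-0.64), of the complex that first binds a break, and the helicase gene Wrn (-0.53). In the Fanconi pathway 1 of 7 was lower, Usp1 (-0.53), which removes ubiquitin from FANCD2. Further mismatch repair genes did not pass, with Mlh3 at 0.05 and Pms1 at -0.06. Base excision had 2 lower of 14, the replicative DNA ligase gene Lig1 (-1.55) and Parp2 (-0.40). Non-homologous end joining had 1 of 9 (Xrcc6, of the Ku dimer, -0.47) and translesion synthesis 1 of 9 (Rad18, -0.52). Beside the share over all genes, 1 lower gene in a list of 7 or 9 says little about the pathway. In nucleotide excision repair 8 of 9 did not pass the test. The remaining one, the transcription-coupled repair gene Ercc6, rose by 1.17 ± 0.09 (adjusted p = 7.86e-04) from 6.10 and 6.11 to 7.25 and 7.31.

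Among 12 further checkpoint genes, 3 were lower and 1 higher, beside 6.86% and 7.41% of all genes. The phosphatase gene Cdc25a, which drives entry into S phase and is a target of CHK1, fell by 1.5 ± 0.23 (adjusted p = 0.00796), and the ATR activator genes Topbp1 and Etaa1 by 0.49 and 0.63. Wee1, the kinase that restrains CDK1, rose by 1.08 ± 0.14 (adjusted p = 0.00404), from 5.59 and 5.32 in WT to 6.64 and 6.42 in KO. The products of Cdc25a and Wee1 act in opposite ways on the cyclin-dependent kinases.

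Genes of the p53 pathway, which the checkpoint kinases activate, went both ways. Of 18 measured, 7 were higher and 3 lower, with a median of 0.06, where 7.41% and 6.86% of all genes were. The growth arrest gene Gadd45a rose by 1.92 ± 0.19 (adjusted p = 0.00169), from 5.16 and 5.76 to 7.39 and 7.38. Zmat3 (1.01), Mdm2 (0.83), the ligase that degrades p53, and Gadd45b (0.78) also rose, while Perp (-2.59), Gadd45g (-1.16) and the phosphatase gene Ppm1d (-0.50) fell. Cdkn1a, the CDK inhibitor p21, differed by 0.21 and did not pass (adjusted p = 0.234); it was chosen after its values were seen. Leaving out KO replicate 1 reduced the higher genes to 3, and leaving out WT replicate 1 or KO replicate 2 reduced them to 4. Of 15 E2F and DREAM regulators, 5 were lower, among them E2f8 (-1.22), E2f7 (-1.01), the p107 gene Rbl1 (-0.97) and E2f1 (-0.59), and Lin54 was higher (0.80). Lower regulators numbered 3 when WT replicate 1 or KO replicate 1 was left out, and Lin54 did not pass without KO replicate 1 or without KO replicate 2.

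**Figure D3:**
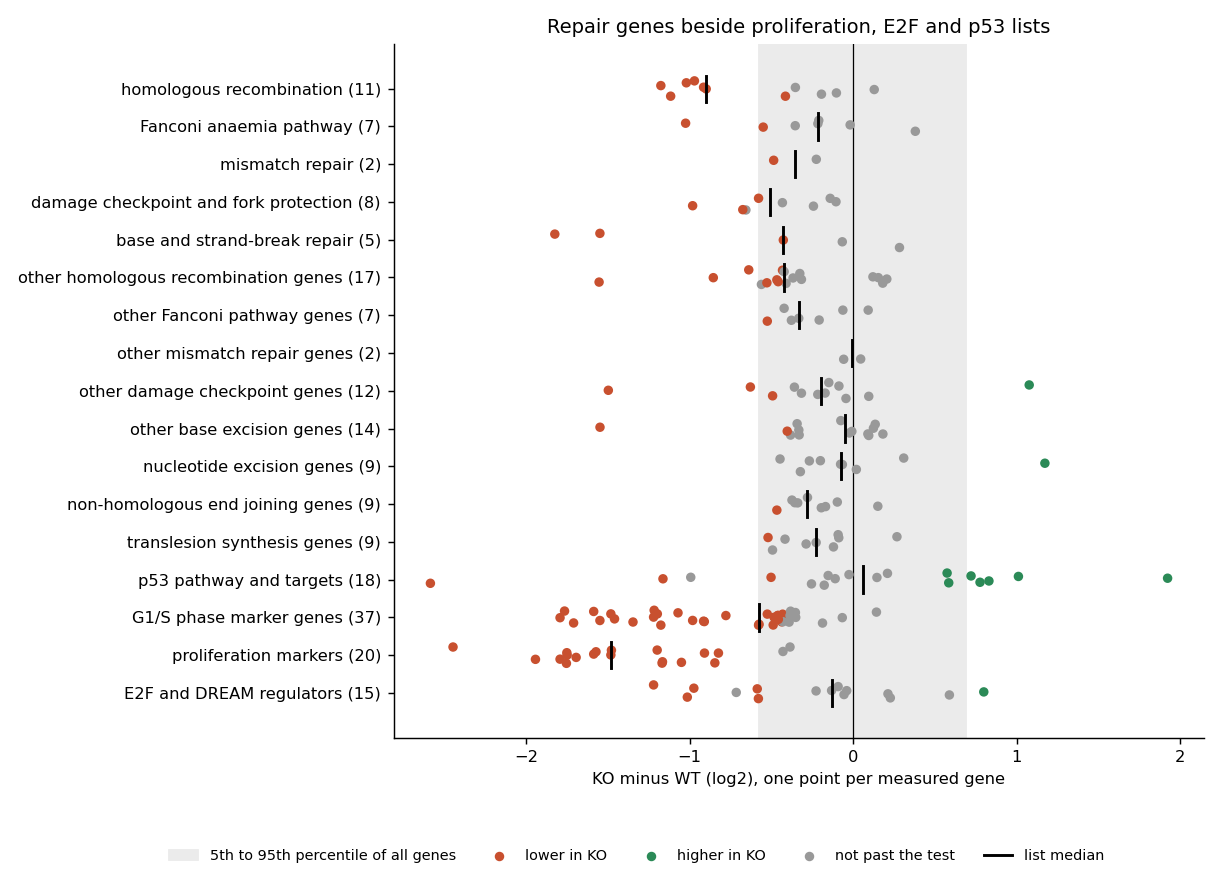
KO minus WT difference (log2, horizontal axis) of every measured gene in the 5 groups of the set, in 8 further repair lists and in 4 context lists (number of genes in parentheses); black bars are list medians and the grey band runs from -0.58 to 0.69, the 5th to 95th percentile of all genes. The medians run from -1.48 (proliferation markers) to 0.06 (p53 pathway), and the higher repair genes are Wee1 and Ercc6.

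The arrays and the sort were checked by their own genes. Pparg itself read between 9.59 and 9.75 in all 4 arrays (difference -0.06; adjusted p = 0.79). This checks neither genotype, because the position of its probes against the floxed exons was not analysed here. Of 11 measured alveolar macrophage markers, 4 were lower in KO and 1, Fabp5, higher (0.67), and the mean level of the list was 9.71 and 9.05 in WT and 7.51 and 7.63 in KO. Car4, Plet1 and Chil3 read between 10.15 and 11.19 in all arrays, while Krt79 (-6.19), Cidec (-5.67) and Mrc1 (-0.44) were lower. Marco (-2.62) and Fabp4 (-2.07) had lower values that did not pass, with WT arrays far apart. Siglecf was lower in KO (-3.27), although both groups were gated as positive for its product, and Itgam, which encodes CD11b, was higher (5.76), as the gates were set. Of markers of other cells, 6 of 8 of interstitial macrophages and 5 of 8 of monocytes were higher in KO, beside 7.41% of all genes. Ccr2 is in both lists and was counted in each. The monocyte marker Treml4 was lower (-2.39). Some higher markers had means near the array median of 3.14, such as Lyve1 (2.74 in WT, 3.14 in KO), Vcan (2.81 and 3.28) and F13a1 (2.65 and 3.34). Others rose far above it, such as C1qb (2.56 and 9.04). The lowest value of any probe set was 0.96, so a value of 0 could not occur. The mean level of the interstitial list was 2.89 and 3.15 in WT and 5.69 and 5.46 in KO, and that of the monocyte list 4.99 and 5.13 in WT and 5.37 and 5.39 in KO. Lymphocyte markers read between 1.69 and 3.54 in all arrays, with 1 of 11 higher in KO (Cd4, 0.42). Of 7 lung epithelium markers 2 were lower, Epcam (-4.37) and Ager (-1.32), and 5 did not pass. Of those 5, Scgb1a1 read 6.89 and 4.26 in WT and 6.48 and 6.63 in KO. Cdh1 read 6.88 and 6.83 in WT and 6.97 and 7.07 in KO, and Sftpc, Sftpb and Sftpa1 had lower means in KO. Of 8 dendritic cell markers Cd209a was higher (2.04) and Batf3 lower (-0.92), and of 6 neutrophil markers S100a8 was higher (1.92). Of 5 eosinophil markers 0 passed in either direction (limma, with 0 at an unadjusted p under 0.05). The part of these cells in the repair genes was not tested.

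**Figure D4:**
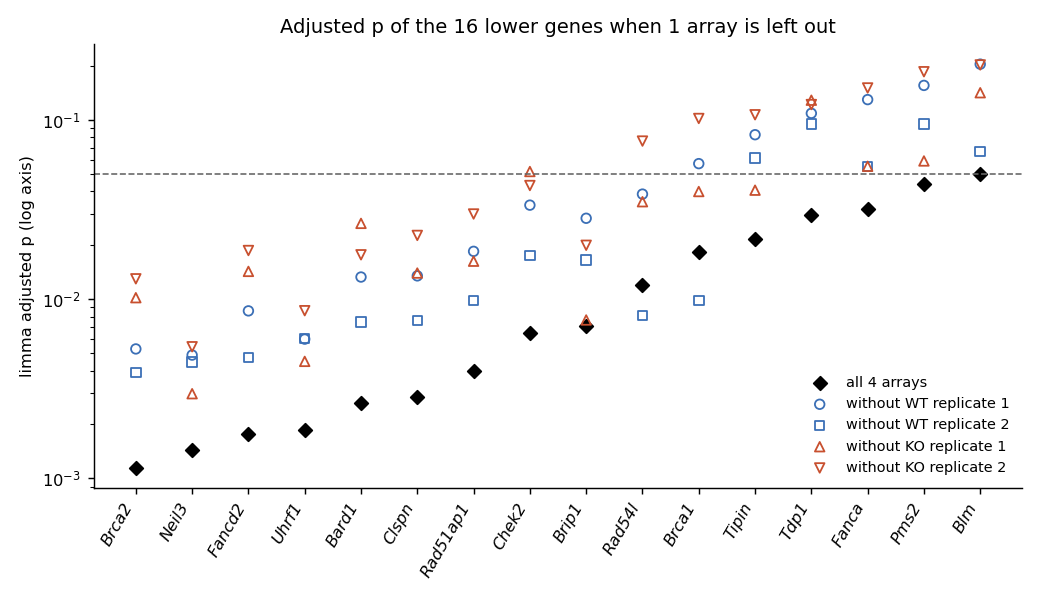
Adjusted p of limma (log axis) for each of the 16 lower genes with all 4 arrays (diamonds) and with 1 array left out (open symbols); the dashed line is 0.05. For 8 genes all symbols lie below the line, and for Blm, Pms2, Fanca and Tdp1 every open symbol lies above it.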

How the data were processed

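Expression was measured on Affymetrix arrays, 2 WT and 2 KO, each from sorted cells pooled from 2 mice. The deposited table holds log2 values of probe sets, for which the submitters' processing notes name RMA and R 2.15.2. RMA equalises the arrays, which hides a shift common to most transcripts. Its settings, and the genome build, are not given in the sources used. Of 28371 probe sets, 21158 named 1 gene, 1881 several and 5332 none in the platform annotation. One probe set per gene, the brightest over the 4 arrays, gave 18782 genes with no intensity filter. KO minus WT was tested two-sided with limma 3.58.1 in R 4.3.3 (group as the only term; 2 residual and 4.16 prior degrees of freedom), with Benjamini-Hochberg adjustment over all genes. The procedure was tested on simulated data. Errors are SE of the fit, and the number of arrays limits the precision; no scan dates were used here. All measured genes of the set are named, and of each other list up to 4 genes with the smallest p in each direction. The members and lists were chosen with earlier results of these data known. Alternatives were other variance models, renormalisation, a filter on dim genes, other probe set rules, a test against a difference of 0.5, a replicate block and leaving out each array. A fit that leaves out 1 array assumes that the lone array of its group varies like the others.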

Additional observations from a re-analysis of the deposited data

How the results depend on the processing

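Lower counts of the repair genes (16 of 33) stayed between 14 and 16 with an intensity trend, robust variance, renormalisation, dim genes left out (which removed Palb2, Exo1 and Fancb) and other probe set rules. Leaving out 1 array gave 9 to 12 of the 33, and 4 to 6 in homologous recombination. It gave 1 in the Fanconi pathway in each case and 0 in mismatch repair in each case. It gave 3 to 6 lower genes in the further repair lists, 3 to 8 higher context genes, and 647 to 1057 lower and 726 to 1227 higher of all genes. A test against a difference of 0.5 left 4 lower repair genes. They were 2 in base and strand-break repair, 1 in homologous recombination and 1 in the Fanconi pathway. The same test left 0 in mismatch repair and 0 of the checkpoint genes (limma, with 1 checkpoint gene at an unadjusted p under 0.05). In the further repair lists it left 3 lower and 1 higher, in the context lists 22 lower and 2 higher, and of all genes 336 lower and 498 higher. The ordinary test without moderation called 0 genes in either direction in every list and over all genes, with 13 lower repair genes, 19 lower further repair genes, 43 lower context genes and 1896 lower and 1739 higher of all genes at an unadjusted p under 0.05. With an intensity trend 0 mismatch repair genes were lower (1 at an unadjusted p under 0.05). With a replicate block 15 repair genes were lower: Blm (adjusted p = 0.0637) and Tdp1 (0.0561) did not pass and Chek1 did (0.0147). The deviations of same-numbered arrays did not correlate (r = -0.0173 across genes, which are not independent replicates), and the numbers were not taken as pairs. Differences near 0 changed sign in 3 genes. With 1 array left out Fancm ran from -0.096 without WT replicate 1 to 0.059 without WT replicate 2, Atrip from -0.3015 without WT replicate 2 to 0.0915 without WT replicate 1, and Ung from -0.1625 without WT replicate 2 to 0.0295 without WT replicate 1. In these the cause was not tested. The number of arrays limits the precision, and no background signal of the arrays was used here.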
